A study of Mus musculus with 2 samples.

Results

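The 9 genes described here are Lepr, Foxc1, Ebf1, Ebf3, Pparg, Cebpa, Lpl, Adipoq and Hp, a named set of regulators and products of leptin receptor-positive stroma and adipocytes, out of 22612 genes in the count tables. Of the 9 genes, 8 had at least 1 UMI (unique molecular identifier, 1 captured transcript molecule) in the WT library and 9 in the Bmx-CreER Wls library. The study captured lineage-depleted cells from the femoral bone marrow of C57BL/6 embryos at E18.5 on the BD Rhapsody platform and counted whole-transcriptome UMIs per cell. The WT library held 5998 barcodes and 22708005 UMIs, and the Bmx-CreER Wls library held 6825 barcodes and 24704991 UMIs, from embryos in which tamoxifen was used to delete Wls, the carrier needed for Wnt secretion, through a Cre recombinase driven by the arterial endothelial gene Bmx. There was 1 library per genotype, so no difference between the libraries has a replicate check, no test was run, and genotype and library cannot be told apart. Whether the WT embryos of this library also received tamoxifen, whether they were littermates and how many embryos each library holds is not given in the sources used here. Depletion of lineage-positive cells removed most mature blood cells before capture, which sets the shares of cells.

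Leptin receptor-positive reticular cells are perivascular stromal cells of the adult marrow that make Cxcl12 and Kitl, cytokines that hold and sustain haematopoietic stem cells, and they are also the main source of marrow adipocytes and of new bone-forming cells in the adult. Foxc1, Ebf1 and Ebf3 are transcription factors known to maintain these cells, whereas Pparg and Cebpa are the central transcription factors of adipocyte differentiation. Lpl (lipoprotein lipase), Adipoq (adiponectin) and Hp (haptoglobin) are secreted products that adult marrow adipocyte precursors make.

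The cells were read in the groups that the study listed by barcode for the E18.5 control library. After a filter of more than 200 and fewer than 5000 genes and less than 30% mitochondrial UMIs, 3690 listed cells were used in 18 groups. These comprised 1649 bone marrow stromal cells (BMSCs) in 6 groups, which the study calls adult-enriched BMSCs (aBMSCs, 25 cells), embryo-enriched BMSCs (eBMSC-1, 940 cells, and eBMSC-2, 149 cells), mitotic BMSCs (231 cells) and osteolineage cells (OLCs-1, 202 cells, and OLCs-2, 102 cells). The others were 953 chondrocytes, 45 mural cells, 435 endothelial cells (ECs) in 5 groups, 543 haematopoietic progenitors (HSPCs) in 4 groups and 64 erythroid cells. The listed groups were made by clustering on all genes, the 9 genes included, so levels across them are a description. Every level is the sum of a gene's UMIs over a group per 1000000 UMIs of that group (CPM), with an exact Poisson 95% interval, shares of cells carry exact Clopper-Pearson 95% intervals, and ratios carry exact conditional binomial 95% intervals. All of these cover counting error only. CPM values of a gene are compared between groups and never between genes.

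The listed labels were checked against marker genes. The OLCs-1 were the group with the highest level of a list of 6 reticular genes outside the set (Cxcl12, Kitl, Angpt1, Il7, Esm1 and Grem1), with 4333.2 CPM, against 2146.3 CPM in arterial ECs, 1263.0 CPM in aBMSCs, 366.0 CPM in eBMSC-1 and 163.2 CPM in OLCs-2, and the OLCs-1 had UMIs of all 6 genes. Cxcl12 alone gave 2647 of the 3153 UMIs of this list in OLCs-1 and 266 of the 391 in arterial ECs. The lead of OLCs-1 over arterial ECs in this sum thus rests mostly on Cxcl12. The OLCs-1 held 32059.9 CPM of 12 osteolineage markers, against 41360.8 CPM in eBMSC-1, 114308.0 CPM in aBMSCs and 199141.4 CPM in OLCs-2. All 12 had UMIs in OLCs-1, aBMSCs and OLCs-2, but only 8 in eBMSC-1. The 12 include Col1a1, which was also used as a fibroblastic marker, so this sum alone does not rank groups by osteolineage identity. The OLCs-1 held 35.7 CPM of 11 EC markers, against 13344.8 CPM in sinusoidal ECs. The listed neutrophil progenitors went against their label. They had 0 UMIs of 5 neutrophil markers and 44011.1 CPM of 8 osteoclast markers, and 129 of the 139 cells fell into an osteoclast-like cluster, so they are called the listed neutrophil progenitors below. The listed multipotent HSPCs had 2088.9 CPM of 9 HSPC markers and 3614.3 CPM of 4 granulocyte-monocyte progenitor markers, and of the 173 cells 32 fell into the osteoclast-like cluster and 27 into an unnamed cluster. Of the 231 mitotic BMSCs, 182 fell into a cluster led by muscle, Schwann cell and other genes that was left unnamed.

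RefSeq promoter windows of the GRCm38.p6 build, 250 bases before to 50 bases after a start site, were found for 7 of the 9 genes with 11 start sites, and Lpl and Hp had no entry. Both strands were searched for the letters CCCNNGGG (the motif of EBF factors, found in 13.7% of 32851 windows), TTNNGNAA (C/EBP factors, 40.7%) and GTAAACA (forkhead factors such as Foxc1, 3.65%). The 4 windows below are shown because they carry C/EBP letters at the receptor, at a factor that leads in OLCs-1 and at the adipocyte genes, printed on the plus strand of the genome with the matches in capitals. The letters read in the printed direction in Lepr and in the Pparg match 16 bases before the start, and on the opposite strand in the other matches. They are Lepr at its start site 2 (chr4:101717656-101717955), Foxc1 (chr13:31806396-31806695), Pparg at its start site 3 (chr6:115421816-115422115) and Adipoq (chr16:23146286-23146585).
Lepr, start site 2: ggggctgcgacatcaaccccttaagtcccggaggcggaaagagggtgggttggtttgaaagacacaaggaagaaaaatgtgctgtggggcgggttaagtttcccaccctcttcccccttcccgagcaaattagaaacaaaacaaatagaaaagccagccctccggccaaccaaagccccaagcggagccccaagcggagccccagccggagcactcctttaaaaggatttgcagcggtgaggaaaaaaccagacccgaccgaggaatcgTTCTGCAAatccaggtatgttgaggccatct
Foxc1: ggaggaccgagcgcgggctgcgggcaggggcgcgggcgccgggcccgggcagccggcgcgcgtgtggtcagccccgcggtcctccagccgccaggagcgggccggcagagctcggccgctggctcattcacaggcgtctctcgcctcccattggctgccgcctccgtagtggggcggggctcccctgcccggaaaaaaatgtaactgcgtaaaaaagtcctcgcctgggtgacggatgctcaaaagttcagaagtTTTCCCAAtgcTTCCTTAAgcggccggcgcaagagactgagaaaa
Pparg, start site 3: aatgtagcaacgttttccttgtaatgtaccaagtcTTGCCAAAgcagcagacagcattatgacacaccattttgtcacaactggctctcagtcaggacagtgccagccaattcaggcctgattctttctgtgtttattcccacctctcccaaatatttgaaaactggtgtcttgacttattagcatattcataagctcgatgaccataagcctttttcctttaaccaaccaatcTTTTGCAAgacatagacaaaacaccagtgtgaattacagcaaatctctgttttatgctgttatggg
Adipoq: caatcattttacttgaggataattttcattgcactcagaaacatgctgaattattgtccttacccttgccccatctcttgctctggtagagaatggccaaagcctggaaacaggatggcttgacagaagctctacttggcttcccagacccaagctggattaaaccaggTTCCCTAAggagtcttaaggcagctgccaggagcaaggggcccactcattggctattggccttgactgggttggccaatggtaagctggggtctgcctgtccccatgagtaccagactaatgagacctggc
The Lepr match begins 20 bases after the start, those of Foxc1 6 and 17 bases after it, those of Pparg 215 and 16 bases before it, and that of Adipoq 81 bases before it. The windows of these genes differed widely in CpG dinucleotides, beside a median of 7 over all windows. Adipoq had 0 and Pparg start site 3 had 2, whereas Cebpa had 29, Foxc1 32, the first Pparg start 44 and Ebf3 46. A further C/EBP match lay at the first Ebf1 start, and Ebf3 had 1 EBF match 21 bases before its start. The other windows, Lepr start site 1, Ebf1 start site 2, Ebf3, Pparg start sites 1 and 2 and Cebpa, had no C/EBP letters. C/EBP letters are common, being found in 40.7% of all windows, and forkhead letters were found in none of the 11 windows of these genes. A match of letters is a description and not a binding site.

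Lepr, the receptor of the adipocyte hormone leptin (chromosome 4, 101717404 to 101815352 on the plus strand, GRCm38), was higher in ECs as a whole than in BMSCs as a whole. The level in all listed ECs was 85.3 CPM (70.7 to 102.1, 119 UMIs), against 44 CPM (38.7 to 49.7, 256 UMIs) in all listed BMSCs. Capillary-2 ECs had 181.8 CPM (117.7 to 268.4), OLCs-1 140.2 CPM (114.3 to 170.2), sinusoidal ECs 140.0 CPM (83 to 221.2), capillary-3 ECs 96.1 CPM and arterial ECs 82.3 CPM. Capillary-1 ECs followed with 55.5 CPM, aBMSCs with 47.7 CPM from only 6 UMIs in 3 cells, and eBMSC-1 with 40.4 CPM. No neighbours among these first 8 groups lay apart by more than counting error. The first step beyond it was from eBMSC-1 down to mitotic BMSCs with 19.5 CPM, a ratio of 2.08 (1.27 to 3.57). Chondrocytes had 9.5 CPM, mural cells 6.85 CPM from 1 UMI, all listed HSPCs 2.84 CPM, and megakaryocyte progenitors and erythroid cells had 0 UMIs. A Lepr UMI was found in 40.4% (26.4 to 55.7) of capillary-2 ECs and in 9.52% of BMSCs at medians of 2691 and 3214 UMIs per cell, and in 0 of 64 erythroid cells at a median of 9239 UMIs, where 3 UMIs would amount to 5.07 CPM. With every cell thinned to 1000 UMIs, the expected share was 18.9% in capillary-2 ECs, 13.2% in OLCs-1, 3.35% in eBMSC-1 and 0% in erythroid cells. The genes whose levels followed Lepr most closely over the 18 groups were Eva1a (Pearson r = 0.918 on log2(CPM + 1)), Dennd5b (0.914) and Pald1 (0.91).

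**Figure D1:**
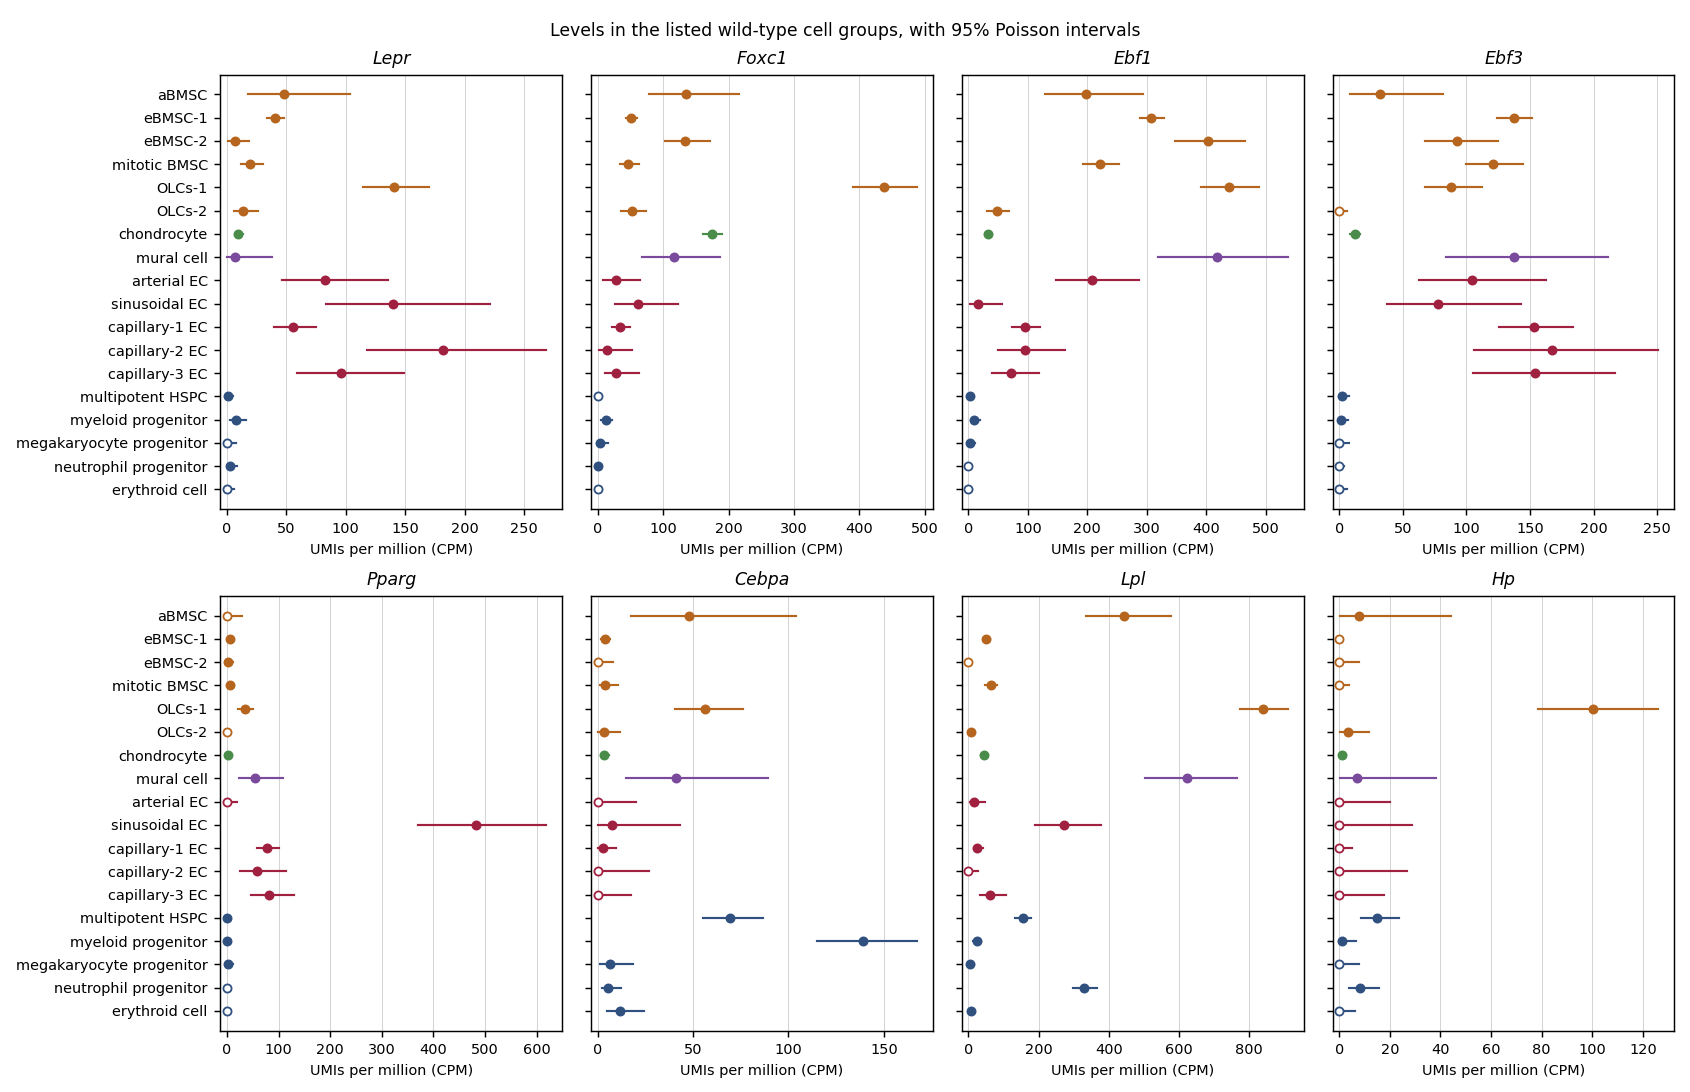
Levels of 8 genes in the 18 listed cell groups of the WT library, in CPM on the horizontal axis of each panel, with exact Poisson 95% intervals as bars and hollow points where a group has 0 UMIs. Colours mark stromal, cartilage, mural, endothelial and blood groups. Lepr is high in ECs and OLCs-1, Pparg peaks in sinusoidal ECs at 482.2 CPM, Cebpa in myeloid progenitors at 139.3 CPM and Hp in OLCs-1 at 100.3 CPM. Adipoq, at 0 UMIs in every group, is not drawn.

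The stromal transcription factors did not share 1 pattern. Foxc1, a forkhead factor required for the reticular niche (chromosome 13, 31806633 to 31812476, plus strand), was highest in OLCs-1 with 437.0 CPM (390.3 to 487.8), which was 2.5 times (2.17 to 2.87) the next group, chondrocytes with 174.9 CPM (160.9 to 189.9). The aBMSCs had 135.0 CPM, eBMSC-2 133.9 CPM, mural cells 116.5 CPM and eBMSC-1 51.7 CPM, and ECs together had 33 CPM. Chondrocytes thus carried Foxc1 at a level above eBMSC-1, and 65.2% of all Foxc1 UMIs of the WT library lay in chondrocyte-like cells, which were 45.8% of the cells. A Foxc1 UMI was found in 66.8% (59.9 to 73.3) of OLCs-1 and in 0 of 173 multipotent HSPCs, at medians of 3362.5 and 6311 UMIs. Enah, Farp1 and Shisa4 had the closest profiles to Foxc1, with r from 0.934 to 0.945.

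Ebf1, an early B-cell factor that also acts in stroma and fat (chromosome 11, 44617317 to 45008091, plus strand), was spread over stroma. OLCs-1 had 438.4 CPM (391.6 to 489.3), mural cells 418.1 CPM (319.8 to 537.1) and eBMSC-2 403.9 CPM (348.1 to 466.1), and these 3 groups were not apart by more than counting error. The eBMSC-1 had 307.9 CPM (900 UMIs), mitotic BMSCs 222.2 CPM, arterial ECs 208.6 CPM (147.6 to 286.3) and aBMSCs 198.6 CPM. OLCs-2, the group richest in osteolineage markers, had 47.8 CPM, chondrocytes 33.4 CPM and sinusoidal ECs 15.6 CPM from 2 UMIs. Within ECs, Ebf1 thus ran from 208.6 CPM in arterial to 15.6 CPM in sinusoidal cells. Ebf1 overlaps Gm12158 on the other strand, and since strand use in the counting is not given in the sources used here, reads of that pair may not be separable. Tuba1a (r = 0.96), Kank2 (0.94) and Fstl1 (0.928) followed Ebf1 most closely.

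Ebf3, a paralog of Ebf1 known to keep adult reticular cells from turning to bone (chromosome 7, 137193673 to 137314445, minus strand), was not highest in OLCs-1. Capillary ECs had 152.9 to 167.3 CPM in the 3 groups, eBMSC-1 137.5 CPM (124.4 to 151.6), mural cells 137.1 CPM and mitotic BMSCs 120.8 CPM. Arterial ECs had 104.3 CPM, eBMSC-2 92.9 CPM and OLCs-1 88 CPM (67.7 to 112.3). The aBMSCs had 31.8 CPM from 4 UMIs and chondrocytes 12.3 CPM. In OLCs-2, 0 UMIs were found among 606780, where 3 UMIs would amount to 4.94 CPM. Lamb1 (r = 0.962), Lamc1 (0.956) and Zfp423 (0.948) had the closest profiles.

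Pparg, the nuclear receptor that drives adipogenesis (chromosome 6, 115360951 to 115490399, plus strand), was above all an endothelial transcript in this fetal marrow. Sinusoidal ECs had 482.2 CPM (369.7 to 618.1, 62 UMIs), which was 5.9 times (3.41 to 10.8) the next group, capillary-3 ECs with 81.7 CPM. Capillary-1 ECs had 77.1 CPM, capillary-2 ECs 58.2 CPM, mural cells 54.8 CPM and OLCs-1 34.4 CPM (22.2 to 50.7, 25 UMIs). The eBMSC-1 had 5.82 CPM, and 0 UMIs were found in arterial ECs and in aBMSCs, where 3 UMIs would amount to 16.5 and 23.8 CPM. A Pparg UMI was found in 61.7% (46.4 to 75.5) of 47 sinusoidal ECs and 9.9% of OLCs-1, against 0.735% of chondrocytes, at medians of 2314, 3362.5 and 2765 UMIs, and the expected shares at 1000 UMIs were 36.7%, 3.45% and 0.227%. EC-like cells held 71.2% of the Pparg UMIs of the WT library and 10.3% of its cells. Nr2f2, a factor of venous identity, followed Pparg most closely (r = 0.9), then Foxc2 (0.869) and Pvrl2 (0.855).

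Cebpa, a partner of Pparg in fat that also directs myeloid cells (chromosome 7, 35119293 to 35121928, plus strand), was highest in blood progenitors. Myeloid progenitors had 139.3 CPM (114.9 to 167.3), 2 times (1.49 to 2.7) the 69.5 CPM of the listed multipotent HSPCs. Outside blood, OLCs-1 had 56.3 CPM (40.4 to 76.4, 41 UMIs), aBMSCs 47.7 CPM from 6 UMIs and mural cells 41.1 CPM from 6 UMIs. The eBMSC-1 had 3.76 CPM and all listed ECs 2.15 CPM from 3 UMIs. OLCs-1 held 41 of the 64 Cebpa UMIs of all listed BMSCs. Pus7l (r = 0.83), Fam105a (0.818) and its paralog Cebpb (0.81) were closest.

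Lpl, which frees fatty acids from circulating lipoproteins (chromosome 8, 68880491 to 68907448, plus strand), had several sources. OLCs-1 had 841.1 CPM (775.8 to 910.4) and mural cells 623.7 CPM (502.2 to 765.8), apart by a ratio of 1.35 (1.08 to 1.7). The OLCs-1 level leaned on few cells, with 158 of 612 UMIs in 3 cells. The aBMSC value of 444.8 CPM rested wholly on 3 cells that held all 56 UMIs. The listed neutrophil progenitors had 331.0 CPM. An Lpl UMI was found in 73.4% of them and in 7.81% of erythroid cells, groups with medians of 7357 and 9239 UMIs. Sinusoidal ECs had 272.2 CPM, and eBMSC-2 had 0 UMIs. Of the Lpl UMIs of the WT library, 40.3% lay in BMSC-like cells and 21.8% in osteoclast-like cells, which were 2.95% of the cells. Nav2 (r = 0.786), Speg (0.754) and Lacc1 (0.747) were the closest profiles.

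Hp, which binds free haemoglobin in plasma (chromosome 8, 109575128 to 109579172, minus strand), was found among BMSCs almost wholly in OLCs-1, which held 73 of 76 UMIs. OLCs-1 had 100.3 CPM (78.6 to 126.1, 73 UMIs), 6.8 times (3.97 to 12.3) the 14.8 CPM of the listed multipotent HSPCs. The listed neutrophil progenitors had 8.37 CPM, aBMSCs 7.94 CPM from 1 UMI and OLCs-2 3.3 CPM from 2 UMIs. No Hp UMI was found in eBMSC-1, eBMSC-2, mitotic BMSCs or any EC group, and 3 UMIs would amount to 1.03 CPM in eBMSC-1 and 2.15 CPM in all listed ECs. An Hp UMI was found in 25.7% (19.9 to 32.3) of OLCs-1 and in 0.315% of chondrocytes, at medians of 3362.5 and 2765 UMIs. Mmp9, an osteoclast protease, had the closest profile (r = 0.79), followed by Arap2 (0.787) and 2810474O19Rik (0.783). Profiles over 18 groups of 1 library share that library and its depths, so these correlations are descriptions.

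Adipoq, the adipocyte hormone adiponectin (chromosome 16, 23146536 to 23158028, plus strand), was not detected in the WT library, in which 0 of 22266017 UMIs of kept cells were Adipoq and 3 UMIs would amount to 0.135 CPM. The Bmx-CreER Wls library had 4 Adipoq UMIs in 3 cells. All 3 cells lay in the cluster that held most listed OLCs-1 and were nearest to the OLCs-1 centroid. They held 78, 62 and 51 UMIs of Cxcl12 and 94, 5 and 21 UMIs of Lpl. Fabp4, Cfd and Plin4, products of mature adipocytes chosen after their values were seen, were at 0 in each. Cfd and Plin4 also had 0 UMIs in every listed WT group. Fabp4 had 2.75 CPM in listed OLCs-1 and 4821.4 CPM in capillary-2 ECs. These values of 0 therefore do not set the 3 cells apart from other stromal cells. Of the 3 cells, 2 held Lepr, with 7 and 3 UMIs, and 1 held Pparg, with 5 UMIs.

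**Figure D2:**
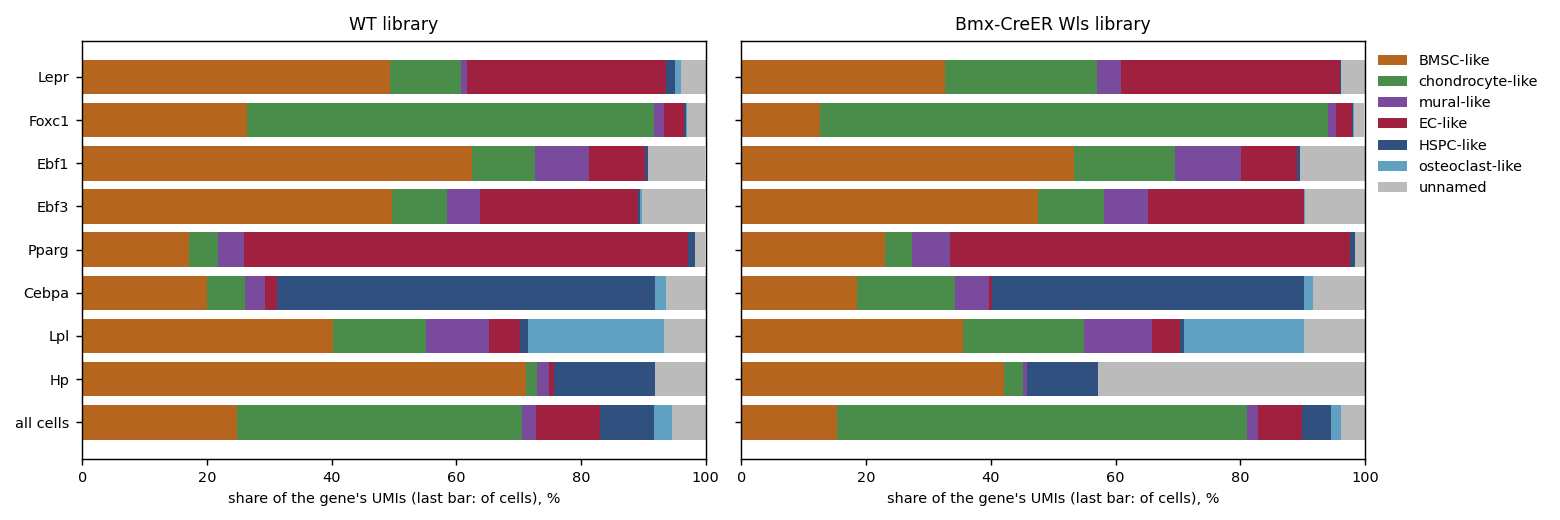
Share of the UMIs of 8 genes (Adipoq is not drawn) that lay in each cell class, in percent, with WT on the left and Bmx-CreER Wls on the right, and in the last bar the share of all cells. In the WT library EC-like cells hold 71.2% of Pparg UMIs, HSPC-like cells 60.6% of Cebpa UMIs, chondrocyte-like cells 65.2% of Foxc1 UMIs and BMSC-like cells 71.2% of Hp UMIs.

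Within stroma, OLCs-1 stood out for the set. Compared with the other listed BMSCs, at similar medians of 3362.5 and 3201 UMIs per cell, OLCs-1 had higher levels of the receptor, of Foxc1, of both adipogenic factors and of 2 secreted products. Of the 9 genes, 8 had at least 20 UMIs over both groups, and Adipoq had none. At least 2-fold higher were 6 of these 8, beside 11.6% of 11098 genes. Lepr was 4.64 times as high (3.58 to 6), with 140.2 against 30.2 CPM. Foxc1 was 7.23 times as high (6.16 to 8.48), with 437.0 against 60.4 CPM. Pparg was 7.29 times as high (4 to 13.3), with 34.4 against 4.71 CPM, and Cebpa 12.5 times (7.32 to 21.8), with 56.3 against 4.51 CPM. Lpl was 15.8 times as high (13.6 to 18.2), with 841.1 against 53.4 CPM, and Hp, with 73 against 3 UMIs, gave a ratio of 170.4 with a counting interval of 56.1 to 845.4. The EBF factors did not join them. Ebf1 was 1.65 times as high (1.45 to 1.86), with 438.4 against 266.5 CPM, and the Ebf3 ratio of 0.79 had an interval (0.601 to 1.02) that held 1. The median log2 ratio of all genes was 0.176. OLCs-1 were drawn by clustering on these genes among others, so the count describes the group and tests nothing.

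**Figure D3:**
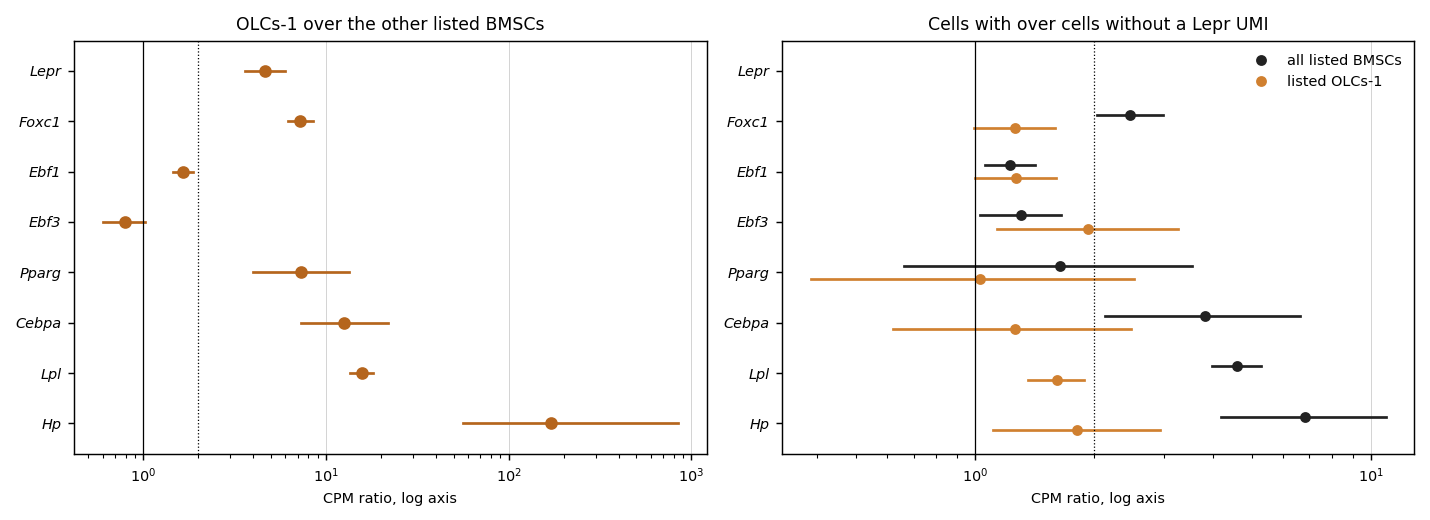
Left, CPM ratio of OLCs-1 over the other listed BMSCs for 8 genes. Right, CPM ratio of cells with over cells without a Lepr UMI, among all listed BMSCs and among OLCs-1, for the 7 genes other than Lepr. Axes are logarithmic, bars are exact binomial 95% intervals, the solid line marks a ratio of 1 and the dotted line a ratio of 2, and the Hp ratio of 170.4 is the farthest to the right on the left side.

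At least 4 of the 9 genes had a UMI in 67 of 202 OLCs-1 (33.2%), 15.6% of mural cells, 8.51% of sinusoidal ECs, 0.638% of eBMSC-1 and 0 of 64 erythroid cells, at medians of 3362.5, 2708, 2314, 2927 and 9239 UMIs per cell. These shares rise with the level of each gene, and whether the genes shared cells beyond that was not tested. Splitting the listed BMSCs by a Lepr UMI gave 157 cells with and 1492 without, at medians of 3547 and 3180 UMIs. Of 7 other genes with enough UMIs, 4 were at least 2-fold higher in cells with Lepr, beside 5.26% of all genes. These were Foxc1 (2.46, 2.03 to 2.98), Cebpa (3.82, 2.13 to 6.61), Lpl (4.58, 3.98 to 5.27) and Hp (6.8, 4.19 to 10.9). Ebf1 (1.23), Ebf3 (1.31) and Pparg (1.64, 0.664 to 3.54) were not. Of the 157 cells with Lepr, 60 were OLCs-1. Within OLCs-1 alone, 0 of 7 genes passed 2-fold, a count near the 3.85% of all genes. The ratios were 1.93 (1.14 to 3.26) for Ebf3, 1.81 (1.11 to 2.94) for Hp, 1.61 (1.36 to 1.89) for Lpl, 1.26 for Foxc1 and 1.03 (0.385 to 2.52) for Pparg. The 4 ratios past 2-fold over all BMSCs were thus smaller when taken inside OLCs-1, where 142 cells had no Lepr UMI at a median of 3370.5 UMIs.

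The aBMSCs were 25 cells with a median of 1358 UMIs. Against eBMSC-1, 5 of the 9 genes had enough UMIs, and 3 were at least 2-fold apart, beside 38.7% of all genes. Foxc1 was 2.61 times as high (1.48 to 4.33), but under 2-fold by the mean over cells, without the top 5% of cells by doublet score and without the 3 cells richest in it. Lpl was 8.67 times as high (6.26 to 11.9) from the 3 cells named above, without which aBMSCs had 0 CPM and lay below eBMSC-1. The Ebf3 ratio was 0.231 (0.0626 to 0.596), and Ebf3 was not 2-fold apart by the mean over cells. The Lepr ratio of 1.18 (0.425 to 2.65) spans both directions. Cebpa, with 6 and 11 UMIs and so below the minimum of 20, had a ratio of 12.7 (3.85 to 37.4), and its level in OLCs-1 was 1.18 times that in aBMSCs with an interval (0.499 to 3.41) that held 1. Beside these values, the osteolineage markers summed to 114308.0 CPM in aBMSCs against 41360.8 CPM in eBMSC-1, and 11 chondrocyte markers to 10024.8 against 1180.6 CPM. In addition, the 8 osteoclast markers summed to 4035.3 CPM in aBMSCs (2 of the 8 detected) and to 3585.6 CPM in OLCs-1 (4 of the 8). The aBMSC sum was nearly all Mmp9, with 3900.3 CPM. In the listed neutrophil progenitors Mmp9 had 15837.1 of the 44011.1 CPM of these markers. The part of any of these marker sums in the result was not tested. In the joint clustering 13 aBMSCs fell into the cluster with most OLCs-1, 9 into the largest eBMSC-1 cluster and 3 elsewhere.

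Among pathway genes around the set, those of the reticular list set OLCs-1 apart from the other listed BMSCs. Of 17 reticular niche genes, 13 had enough UMIs, 9 were at least 2-fold higher in OLCs-1 and 0 lower, with a median log2 ratio of 1.87 beside 0.176 for all genes. Of all 11098 genes, 11.6% were at least 2-fold higher, and 1428 genes were at least 2-fold lower. These are the background for each count of higher and of lower genes in the lists that follow. Cxcl12 had 3637.8 against 221.6 CPM (16.4 times, 15.3 to 17.6) and Cdh11, an adhesion molecule of stroma, 1216.3 against 358.5 CPM (3.39 times). Igfbp5, an inhibitor of insulin-like growth factors, was 1.35 times as high, and Pdgfra, a receptor of mesenchymal progenitors, had a ratio of 0.635. Of 9 measured adipogenic regulators, Cebpb (5.66 times, 4.42 to 7.23) and Zfp467 (3.8 times, named after its value was seen) were higher, Ebf2 was lower with 19.2 against 61 CPM (0.315), and Cebpd (1.37) and Zfp423 (0.632) lay between, with a list median of 0.0655.

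Of 3 measured genes that restrain adipogenesis, Dlk1, the preadipocyte factor, was far lower in OLCs-1, with 222.6 against 8147.2 CPM (0.0273, 0.0233 to 0.0319), whereas Klf2 (0.605) and Wnt5a (1.53) stayed within 2-fold and Gata3 had only 17 UMIs. Of 7 measured adipocyte effectors, 0 were 2-fold higher. Scd1, a fatty acid desaturase, was lower with 13.7 against 55.7 CPM (0.247), Fasn (0.836), Acaca (0.955) and Pnpla2 (0.796) had intervals that held 1, and the list median was -0.33. OLCs-1 thus had more Pparg, Cebpa and Lpl than the other BMSCs. The count of 0 among 7 effectors lies near the 11.6% share of all genes that were higher, so no contrast is drawn from it. Of the 16 listed effectors, 13 were in the count tables and only these 7 had enough UMIs.

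Partners of the 9 genes were measured in the same comparison. Of 6 genes of leptin receptor signalling, Ptpn1, a phosphatase that dampens the receptor, was 2.23 times as high (1.76 to 2.81) in OLCs-1, Socs3 1.73 times and Stat3 1.21 times, and Leprot, which limits the receptor at the cell surface, had a ratio of 1.12 (0.908 to 1.36) while Lepr itself had 4.64. Of 3 measured partners of Lpl, Angptl4, an inhibitor of the enzyme, was 23.3 times as high (9.04 to 71, 20 against 6 UMIs) and Vldlr 2.68 times, and Lmf1, which folds the enzyme, had 1.15, whereas Cd36 had only 18 UMIs. Hmox1, which breaks down haem, was 3.02 times as high (1.67 to 5.29), and Cd163 and Hpx had too few UMIs. Of the adiponectin receptors, Adipor1 (0.771) and Adipor2 (0.965) were near even and Cdh13 was lower with 2.75 against 82.6 CPM (0.0333). Among 7 measured paralogs, 2 were higher, of which Cebpb is given above and Foxc2 had 33 against 2.75 CPM, 1 was lower (Ebf2), and Cebpg had a ratio of 0.897.

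The Bmx-CreER Wls library was set beside the WT library in classes rebuilt from markers on both libraries together, with the 9 genes left out of the genes used for clustering. The targeted gene Wls was measured first. In EC-like cells it had 23 CPM (42 UMIs) in the Bmx-CreER Wls library and 42.3 CPM (85 UMIs) in the WT library, a ratio of 0.544 (0.367 to 0.796). In cells nearest to the listed arterial ECs it had 2 against 12 UMIs, a ratio of 0.145 (0.0157 to 0.65), which was 0.558 in the cluster with most listed arterial ECs at a clustering resolution of 1.0. Wls was also lower in BMSC-like cells, with a ratio of 0.751 (0.689 to 0.818). The libraries shared 49 barcodes, of which 48 were kept, and leaving those cells out changed none of the counts of genes given below. Chondrocyte-like cells made up 45.8% of the WT and 65.8% of the Bmx-CreER Wls library, and BMSC-like cells 24.8% and 15.3%, so levels over all cells move with this makeup.

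In the BMSC-like, EC-like and HSPC-like classes, each taken whole, no gene of the set with enough UMIs was 2-fold apart. Each count of 0 lies near the share of all genes given beside it, so no contrast with other genes is drawn. In BMSC-like cells (1420 WT and 1013 Bmx-CreER Wls) 0 of 8 genes with enough UMIs were 2-fold apart, beside 3.57% of all genes. Pparg had 18.3 CPM (14.2 to 23.3) in the Bmx-CreER Wls and 9.9 CPM (7.33 to 13.1) in the WT library, a ratio of 1.85 (1.26 to 2.73). In 1 BMSC-like cluster taken alone, chosen after its values were seen, Pparg had 16.5 and 7.02 CPM (34 and 20 UMIs), a ratio of 2.35 (1.32 to 4.31). Lepr had 39.4 and 48.7 CPM, a ratio of 0.808 (0.654 to 0.997), and the ratios of Foxc1, Ebf3, Cebpa, Lpl and Hp had intervals that held 1. In EC-like cells 0 of 6 genes were 2-fold apart, beside 2.85%, and all 6 intervals held 1. Lepr had 85.9 and 77.6 CPM there and Pparg 104.0 and 101.0 CPM, a ratio of 1.03 (0.841 to 1.26). In HSPC-like cells 0 of 4 genes were 2-fold apart, beside 4.13%, and Cebpa had 44.7 and 53.9 CPM, a ratio of 0.828 (0.646 to 1.06).

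In the cluster that held 188 of the 202 listed OLCs-1 (324 WT and 177 Bmx-CreER Wls cells) 0 of 8 genes were 2-fold apart, a count near the 4.48% of all genes. Lpl had 473.9 and 464.9 CPM (ratio 1.02, 0.905 to 1.15) and Hp 57.3 and 52.1 CPM (1.1, 0.767 to 1.57), so the products were close. Ebf1 had 179.1 and 251.3 CPM (0.713, 0.593 to 0.855) and Ebf3 27.6 and 44.8 CPM (0.616, 0.379 to 0.976), both lower in the Bmx-CreER Wls library. That cluster also held 101 of the 102 listed OLCs-2, with 47.8 CPM of Ebf1 and 0 UMIs of Ebf3, and 13 aBMSCs, and the part of this mix in both values was not tested. In cells nearest to OLCs-1 by mean profile the ratios were 0.771 (0.631 to 0.938) for Ebf1 and 0.655 (0.396 to 1.05) for Ebf3. Pparg had 31 and 28 UMIs (CPM ratio 1.72, 0.997 to 2.97) and Lepr 101.3 and 77.2 CPM (1.31, 0.995 to 1.73).

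Cells of both libraries were also assigned to the nearest listed group by its mean profile, which returned 91.6% of listed OLCs-1 and 93.4% of eBMSC-1 to their group but only 1 of 25 aBMSCs. Pparg was higher in the Bmx-CreER Wls library in cells nearest to eBMSC-1 and in those nearest to OLCs-1. Its values near the other BMSC groups are not given here. In cells nearest to eBMSC-1 Pparg had 15.7 against 6.06 CPM (33 and 18 UMIs), a ratio of 2.59 (1.42 to 4.88). In cells nearest to OLCs-1 it had 68.2 against 33.7 CPM (30 and 26 UMIs), a ratio of 2.02 (1.16 to 3.56). In cells nearest to sinusoidal ECs, where Pparg is highest, it had 306.6 against 332.3 CPM, a ratio of 0.923 (0.68 to 1.25). In cells nearest to OLCs-1 at least 4 of the 9 genes had a UMI in 33.8% of 207 WT and 40.8% of 103 Bmx-CreER Wls cells, at medians of 3439 and 3782 UMIs. All of these ratios compare 1 library with 1 library, and the share of all genes 2-fold apart in these groups was not computed.

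**Figure D4:**
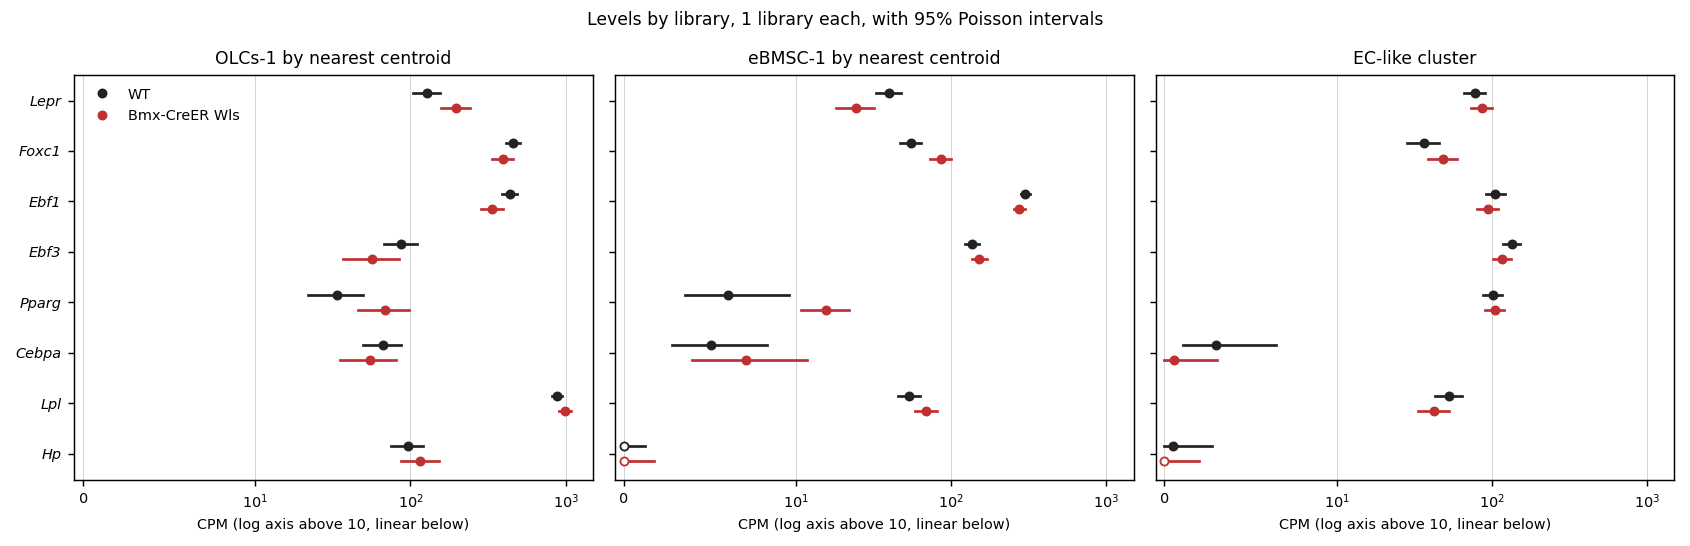
Levels of 8 genes in CPM in the WT (black) and Bmx-CreER Wls (red) libraries, in cells nearest to OLCs-1, in cells nearest to eBMSC-1 and in the EC-like cluster, with exact Poisson 95% intervals as bars and hollow points at 0 UMIs. The axis is logarithmic above 10 CPM and linear below. Pparg lies farther right in the Bmx-CreER Wls library in both stromal groups drawn (68.2 against 33.7 CPM and 15.7 against 6.06 CPM) and at nearly the same level in EC-like cells (104.0 and 101.0 CPM), and Lepr lies farther right near OLCs-1 and farther left near eBMSC-1.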

How the data were processed

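Lineage-depleted E18.5 femoral marrow cells of 1 WT and 1 Bmx-CreER Wls library were analysed. For both libraries the authors deposited raw UMI counts, 1 value for each gene in each cell, without normalization. Per the labels and the submitters' processing notes these were made with bcl2fastq 2.19.1.403, UMI-tools 1.0.1, STAR 2.7.1a and featureCounts 1.6.4 on mm10, and strand use in the counting is not given in the sources used here. The filter kept cells above 200 and below 5000 genes whose mitochondrial UMIs were under 30%, 5736 and 6620 cells with medians of 3128 and 3067 UMIs, which limits precision as the intervals show. Cell groups of the WT library came from the study's barcode lists. Classes over both libraries were rebuilt with scanpy 1.11.5 (11 principal components, 20 neighbours, resolution 0.5), with the 9 genes and cell cycle genes left out, and named from marker lists. Scrublet called 38 WT cells and 0 Bmx-CreER Wls cells as doublets, so the caller was not relied on and no cell was removed. UMIs were summed per group as CPM. With 1 library per genotype no test was run. A gene was counted as apart at a ratio of at least 2 or at most 0.5 where both groups together held at least 20 UMIs of it. Shares at equal depth are expectations over all draws of 1000 UMIs per cell, leaving out shallower cells.

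The 9 genes, the pathway lists and the marker lists were chosen with earlier results of these data known. Named genes were the 9 members, the 4 genes of each pathway list with the highest CPM over the listed BMSCs, the 3 genes closest to each member among those with at least 100 UMIs, and Wls. Coordinates are from the GRCm38 annotation. On simulated data with 200 changed genes, the intervals held the true ratio for 96.5% of them in the comparison of OLCs-1 with other BMSCs (11098 genes) and for 96% in the library comparison of the cluster with most OLCs-1 (9070 genes). The simulated counts were Poisson draws for whole groups, without variation between cells, which is what the intervals assume. They therefore check the calculation only and cannot show how the intervals do where UMIs lie in few cells. Alternatives covered the sum against the mean over cells, depth, cell filters, doublet scores, cells with most UMIs, shared barcodes, clustering settings and scaling (edgeR 4.0.16).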

Additional observations from a re-analysis of the deposited data

Results flagged for a closer look

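Between the libraries, some genes moved in opposite directions in different cell groups, with counting intervals on opposite sides of 1. Cells were assigned to the nearest listed group, and the differences between groups were not tested, since each genotype has 1 library. The genes and groups below were picked for such intervals from all genes of the set in all listed groups. Among that many intervals, some can miss 1 by counting error alone. The share of all genes with such opposite intervals was not computed, so the pattern has no background. For Lepr, the ratio of Bmx-CreER Wls over WT was 1.54 (1.14 to 2.08) in cells nearest to OLCs-1, with 195.5 against 127.0 CPM, and 0.61 (0.43 to 0.854) in cells nearest to eBMSC-1, with 24.2 against 39.7 CPM. For Ebf1, the ratio was 1.99 (1.11 to 3.68) in cells nearest to capillary-2 ECs, from 35 and 19 UMIs, 0.771 (0.631 to 0.938) in those nearest to OLCs-1 and 0.762 (0.643 to 0.905) in those nearest to chondrocytes. For Lpl, the ratio was 1.29 (1.02 to 1.62) for eBMSC-1 and 1.56 (1.16 to 2.11) for multipotent HSPCs, a group of which only 46.2% of the listed cells were regained, and 0.602 (0.515 to 0.704) for chondrocytes and 0.792 (0.655 to 0.958) for mural cells.

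Outside the compared classes, 2 clusters showed a gene of the set at least 2-fold higher in the Bmx-CreER Wls library than in the WT library with an interval above 1. They were picked from all genes of the set in all such clusters. The share of all genes 2-fold higher or lower in these clusters was not computed, so the counts here have no background. In a chondrocyte-like cluster led by Col10a1 and Ihh, genes named after their values were seen, Lepr had 24.3 against 11.2 CPM (75 and 35 UMIs), a ratio of 2.16 (1.43 to 3.33). In an unnamed cluster of 50 WT and 59 Bmx-CreER Wls cells, Hp had 329.0 against 65.7 CPM (57 and 9 UMIs), a ratio of 5.01 (2.46 to 11.5). In that cluster the 5 neutrophil markers summed to 14503.6 CPM (2513 UMIs) in the Bmx-CreER Wls library and to 0 in the WT library, and the macrophage markers to 4992.3 and 5694.2 CPM. Their part in the Hp value was not tested. Lepr in the mural-like cluster was also more than 2-fold higher, with a ratio of 2.82 from 17 and 5 UMIs, but its interval (0.997 to 9.76) held 1. Among clusters outside the compared classes with at least 20 UMIs of a gene, the only levels at least 2-fold lower in the Bmx-CreER Wls library were those of Ebf3 in 3 chondrocyte-like clusters. The ratios were 0.414 (0.249 to 0.685), 0.355 (0.141 to 0.861) and 0.407 (0.151 to 1.01), the last with an interval that held 1.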

How the results depend on the processing

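No paired analysis was possible because each group has 1 library, and leaving out a replicate was not possible for the same reason. Of 129 alternatives for 19 main results, 119 stayed within 1.5 times the count or within the interval. No Wls ratio reversed, whereas a count of genes has no direction and could not be scored as reversed. The same 6 genes were at least 2-fold higher in OLCs-1 than in the other BMSCs under every alternative run. The comparison of aBMSCs with eBMSC-1 gave 1 gene by the mean over cells (Lpl) and 6 with no minimum of UMIs, against 3. Foxc1 was lost by the mean, without the top 5% by Scrublet score and without the 3 cells with most UMIs of the gene. Without those 3 cells Lpl was at 0 CPM in aBMSCs, so its direction turned, and Lepr, whose 6 aBMSC UMIs lay in 3 cells, was at 0 too. With no minimum of UMIs, the library comparison gave 1 gene in BMSC-like cells (Adipoq), 2 in EC-like cells (Cebpa and Hp), 3 in HSPC-like cells (Lepr, Foxc1 and Ebf3) and 1 in the cluster with most OLCs-1 (Adipoq), against 0 each. Without the top 5% of cells by Scrublet score it gave 1 in HSPC-like cells (Ebf1), and the Lepr split within OLCs-1 gave 1 (Lpl), against 0. By nearest centroid it gave 1 in HSPC-like cells (Hp) and 1 for OLCs-1 (Pparg). The causes were not tested, except that a minimum removed admits genes of few UMIs. The Wls ratio in arterial ECs, 0.145, was 0.558 at resolution 1.0, where the cluster holding most listed arterial ECs was used. Of 184 alternatives for 24 levels, 155 stayed within the interval and 29 moved. With groups from the joint clusters 11 of 16 levels moved, 3 of them higher, so most levels depend on the grouping. In WT cells of the cluster with most OLCs-1, Lpl had 464.9 CPM against 841.1 CPM in listed OLCs-1, and Hp 52.1 against 100.3 CPM. Without the 3 cells with most UMIs of the gene, 7 of 24 levels moved. Other scalings multiplied the library ratios by 0.96 to 1.01. Not run were aBMSCs against eBMSC-1 by joint cluster, as no cluster could be taken for aBMSCs, and the OLCs-1 cluster with each library clustered alone, as the Bmx-CreER Wls library has no listed cells. At 1 library per genotype, depth limits Adipoq, Pparg, Cebpa and Ebf3 most, with 0, 25, 41 and 64 UMIs in OLCs-1.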
